A study of Mus musculus with 6 samples.

Results

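The genes described here are the receptors for glutamate and GABA, the main excitatory and inhibitory transmitters of the brain, in cells sorted from the mouse subventricular zone. They were chosen by name: all rows of the deposited table whose symbol starts as a subunit of an ionotropic glutamate receptor (Gria, Grik, Grin, Grid), a metabotropic glutamate receptor (Grm), a GABA-A receptor (Gabra to Gabrr) or a GABA-B receptor (Gabbr). This gave 49 of 55487 rows. Of these, 47 are receptor genes, and 2 only carry a receptor's name: Grid2ip, a partner of delta receptors, and Grin1os, a transcript from the strand opposite Grin1.

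Both genotypes carried a tamoxifen-inducible Cre recombinase (NestinCreERT2, driven by Nestin sequence) and an EYFP reporter at R26. The 3 THC samples had 1 floxed copy of Rb and of p130 and 1 null copy of p107, Rb(F/+);p107(+/-);p130(F/+). The 3 TKO samples were Rb(F/F);p107(-/-);p130(F/F). Controls were therefore heterozygous, not wild type, and p107 was lacking in all cells of TKO mice, not only in recombined ones. The background was mixed C57BL/6 and Sv/129. Mice of 6 to 10 weeks received tamoxifen by gavage at 200 mg/kg per day for 5 days, and YFP-positive cells of several pooled mice were collected 10 days later, at least 200000 per sample. THC 1 and TKO 1 were from a February batch and the other 4 samples from a November batch.

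AMPA, kainate and NMDA receptors are cation channels built from 4 subunits, and their subunit mix sets calcium entry, kinetics and block. GABA-A receptors are chloride channels of 5 subunits, mostly alpha, beta and gamma, while metabotropic glutamate receptors and GABA-B receptors act through G proteins. In the subventricular zone GABA released by neuroblasts acts on GABA-A receptors of the astrocyte-like stem cells and is known to restrain their division. Astrocytes and stem cells also take up both transmitters.

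Depth was even, with 15536084 to 16961817 reads per library, and 1 read was worth 0.944 to 1.07 normalized counts. Rbl1, which encodes p107, was at a normalized count of 497 to 646 in THC and 14.5 to 42.0 in TKO, which fits the genotype label of all 6 libraries. Rb1 was higher in TKO, at 2877 to 3573 against 1631 to 2022 (log2 change 0.82, adjusted p = 0.00066, SE 0.13), and Rbl2, which encodes p130, was at 912 to 976 against 847 to 1250 and did not pass (-0.13, adjusted p = 0.54, SE 0.14). Counts over whole genes do not check the deletion of the floxed parts of Rb1 and Rbl2. Astrocyte and stem cell markers were abundant in all libraries (Slc1a3 at 50277 to 102905), and markers of neuroblasts and of oligodendrocytes were present too, so a sample holds more than 1 cell type. In such bulk samples, fewer cells of a type and less RNA per cell cannot be told apart.

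Of the 49 genes, 41 had a normalized count of at least 10 in at least 3 samples and were tested. In TKO 6 of them were higher and 12 were lower, with 23 that did not pass (limma, adjusted p under 0.05 over all 17278 genes tested). Among all genes tested, 14.3% were higher and 13.6% were lower, 27.9% together. The 41 tested genes, of which Grid2ip is 1, stood at 14.6% higher and 29.3% lower. Their median log2 change was -0.24 (-0.54 in the February pair, -0.15 in November), beside a median of 0.00 over all genes. The share of these 41 genes whose 3 TKO values lay clear of the 3 THC values was 41.5%, near the 38.9% of all genes. The receptors did not move as a block: both GABA-B genes and 3 of 5 tested NMDA genes fell, no kainate gene passed, and the GABA-A genes split, with 5 higher and 4 lower.

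**Figure D1:**
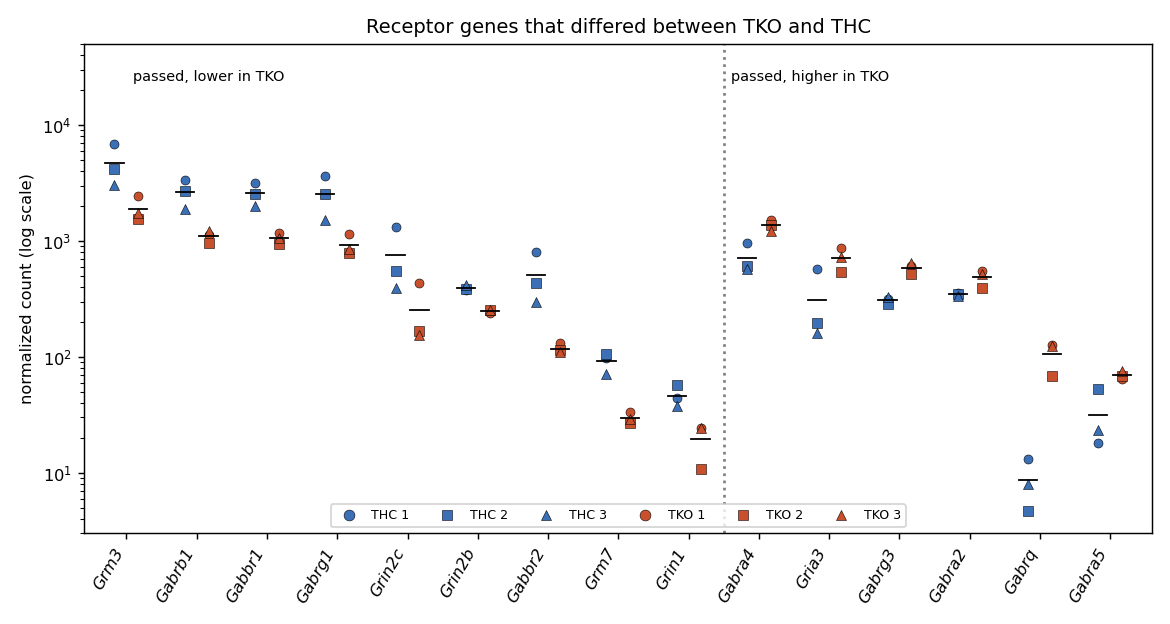
Normalized counts (log axis) of 15 of the receptor genes that passed, 1 symbol per library, THC blue and TKO orange-red, bars at the group means; circles are the February libraries. Grm3 has the highest values and Gabrq shows the widest gap, from 4.72 to 13.03 in THC to 68.8 to 128 in TKO.

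**Figure D2:**
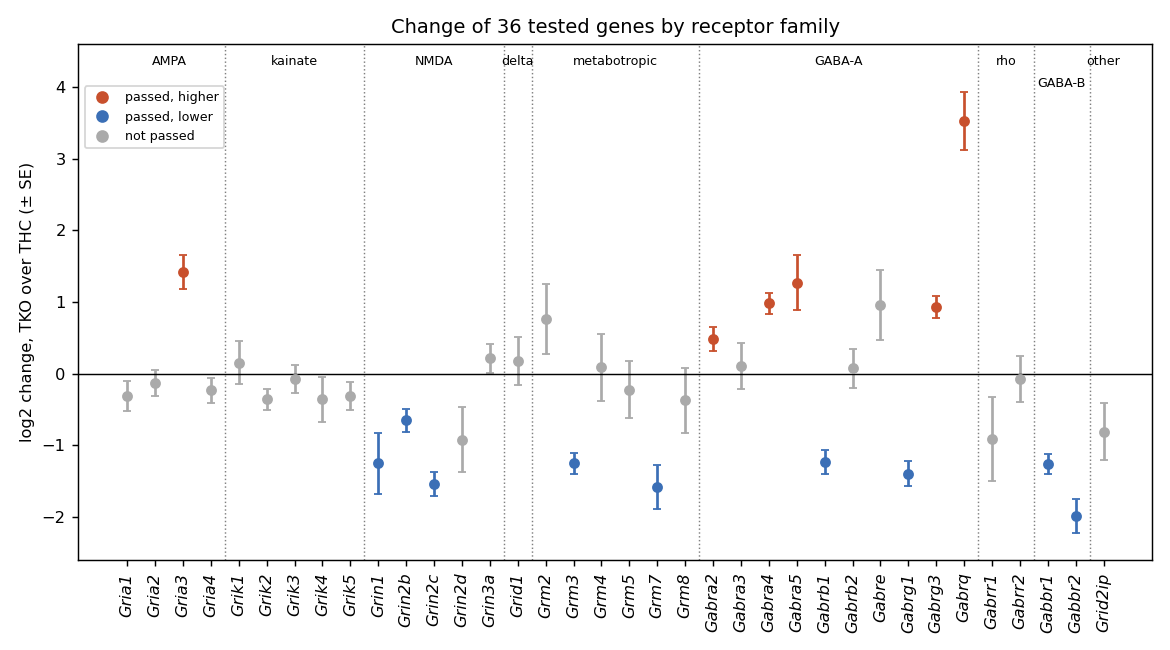
Log2 change (TKO over THC) with its standard error for 36 of the tested genes, grouped by receptor family, colours marking genes that passed. GABA-A genes lie on both sides of 0, from -1.40 (Gabrg1) to 3.53 (Gabrq), while the 5 kainate genes lie between -0.36 and 0.15.

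Among the 4 AMPA receptor genes, which carry fast excitatory transmission, only Gria3 passed. Its counts were 576, 196 and 160 in THC 1 to 3 and 875, 540 and 734 in TKO 1 to 3 (311 ± 231 and 716 ± 169, SD, n = 3 each). THC 1 lay above TKO 2, so the groups overlapped, while within each batch every TKO library was above every THC library. The change was 1.42 on the log2 scale, 2.67-fold (limma adjusted p = 0.00087, SE 0.24). It was 0.60 in the February pair and 1.82 in the November samples. Gria3 lies on chromosome X, 41400854 to 41678601 (GRCm38, whole gene span, as for all positions here). Gria2, whose subunit makes AMPA channels nearly impermeable to calcium, was the most abundant of the family per kilobase of exon, at 320.0 ± 118 in THC and 282 ± 25.3 in TKO. It was at 7093, 3758 and 4078 in THC and 4184, 4131 and 4839 in TKO, with a log2 change of -0.13 (adjusted p = 0.66, SE 0.18), and THC 1 alone stood apart. Without the February pair the difference was 0.19. Gria1 (-0.32) and Gria4 (-0.23) did not pass.

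Per kilobase, Gria3 took 9.28, 5.27 and 4.37% of the AMPA subunit sum in THC and 20.3, 13.1 and 15.6% in TKO, with no overlap. Gria2 took 63.9 to 72.4% in THC and 61.5 to 65.1% in TKO. An exact two-sided permutation test of the Gria3 share gave p = 0.1, the smallest that 3 against 3 samples allow.

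None of the 5 kainate receptor genes passed. Grik2, a subunit that forms channels by itself, was at 599 ± 93.2 and 465 ± 55.1 (log2 change -0.36, adjusted p = 0.087, SE 0.15). Grik5, which needs Grik1 to Grik3 subunits to form a channel and was the highest of the family per kilobase, was at 340, 260 and 270 in THC and 213, 212 and 277 in TKO, and these values overlapped (log2 change -0.31, adjusted p = 0.27, SE 0.19). Grik1 (0.15), Grik3 (-0.07) and Grik4 (-0.36) did not pass either.

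NMDA receptors need the obligatory subunit encoded by Grin1 together with a Grin2 or Grin3 subunit. Grin2c, the member with the highest count per kilobase over all samples and a gene known from astrocytes, was at 1319, 552 and 392 in THC and 435, 169 and 155 in TKO. The groups overlapped through TKO 1, yet each TKO library was below the THC libraries of its batch. It fell by 1.55 on the log2 scale (adjusted p = 4e-05, SE 0.17) and by similar amounts in the February pair (-1.60) and the November samples (-1.52). Grin2b, typical of young neurons, was at 377, 387 and 417 in THC and 241, 256 and 252 in TKO. Its groups were tight and clear of each other (394 ± 20.9 and 250 ± 7.65, log2 change -0.65, adjusted p = 0.0085, SE 0.16).

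Grin1 itself was low, at 44.1, 57.6 and 37.4 in THC and 24.4, 10.7 and 24.1 in TKO. It passed narrowly (log2 change -1.25, adjusted p = 0.046, SE 0.43) but no longer did with any 1 of the 6 libraries left out; over all other settings its adjusted p was 0.038 to 0.18. Grin1os, which shares 1307 exonic bases with Grin1 on the opposite strand, had 2 reads in all libraries together. The library chemistry does not keep the strand, and how reads in the shared bases were counted is not known. Grin3a, whose subunit lowers calcium entry, was at 873, 378 and 380 in THC and 636, 491 and 625 in TKO (log2 change 0.21, adjusted p = 0.48, SE 0.20). Its direction differed between the batches, with -0.46 in February and 0.55 in November, and it passed without TKO 1 (0.55, adjusted p = 0.048).

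Within the NMDA family the shares of the most abundant genes differed between the genotypes. Grin2c made up 73.3, 65.7 and 58.5% of the subunit sum per kilobase in THC and 56.4, 38.3 and 31.9% in TKO. Grin3a made up 18.5 to 23.3% in THC and 33.8 to 52.9% in TKO. Neither share overlapped between the genotypes (exact permutation p = 0.1 each, the smallest possible). Grin2d was at 20.8 to 26.1 in THC and 9.66 to 15.0 in TKO and did not pass (-0.92, adjusted p = 0.15). Grin2a (3.22 to 11.6) and Grin3b (0 to 3.78) were below the filter.

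**Figure D3:**
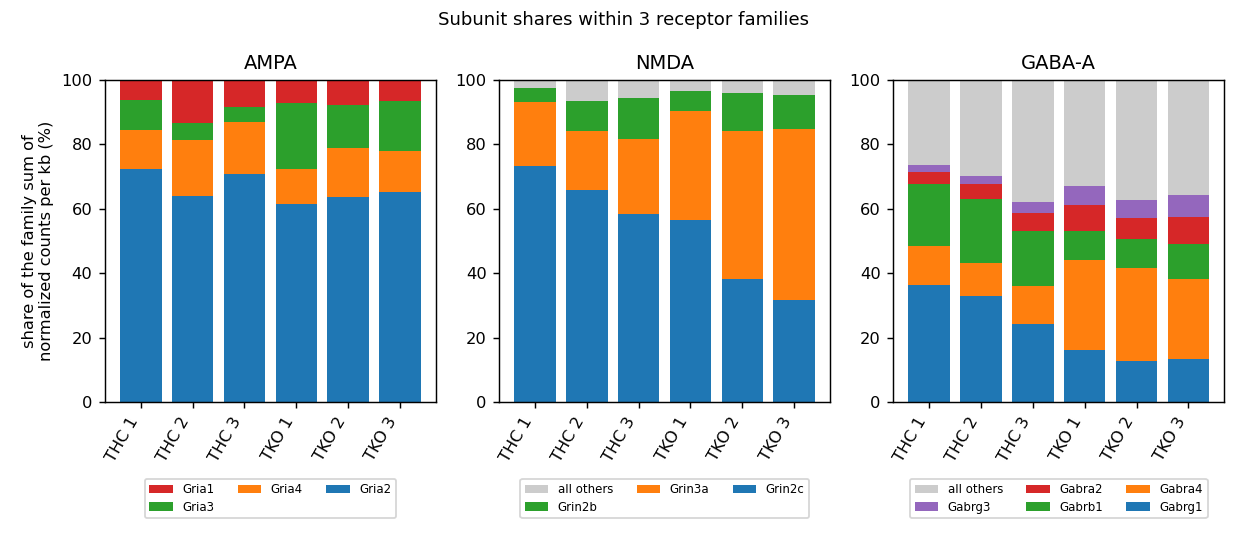
Share of subunit genes in the family sum of normalized counts per kilobase of exon, in percent, 1 bar per library, for AMPA, NMDA and GABA-A receptors. Genes not drawn singly, mostly those with small shares, are pooled as all others. Gria3 is at 4.37 to 9.28% in THC and 13.1 to 20.3% in TKO, Grin3a and Gabra4 also take larger shares in TKO, and Grin2c and Gabrg1 take smaller ones.

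Delta receptors bind cerebellins and act at synapses without being opened by glutamate. Grid1, a member of this family, was at 166, 102 and 54.5 in THC and 106, 94.6 and 132 in TKO, so THC covered a wider range than TKO, and it did not pass (0.17, adjusted p = 0.75, SE 0.33). Grid2ip was at 25.2 to 46.3 in THC and 17.4 to 24.4 in TKO (-0.81, adjusted p = 0.16, SE 0.40).

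The metabotropic glutamate receptors were carried almost wholly by Grm3, a receptor coupled to inhibitory G proteins that is known from astrocytes. It had the highest level per kilobase of all receptor genes, 1541 ± 640.4 in THC and 624 ± 152 in TKO, and made up 94.2 to 97.7% of its family in the 6 libraries. Its counts were 6860.2, 4169 and 3064 in THC and 2423, 1534 and 1748 in TKO, every TKO library below every THC library. It fell by 1.25 on the log2 scale (adjusted p = 7.3e-05, SE 0.15) and was seen in the February pair (-1.50) and the November samples (-1.13). Grm3 lies on chromosome 5, 9485541 to 9725170.

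Grm7, a presynaptic receptor of the same signalling class, was lower by a similar ratio from a far lower level. It was at 97.2, 107 and 71.7 in THC and 33.2, 26.9 and 29.0 in TKO (log2 change -1.58, adjusted p = 0.0027, SE 0.31). Grm5, the receptor coupled to phospholipase C in young astrocytes, ranged from 42.4 to 223 in THC and from 80.6 to 103 in TKO and did not pass (-0.22, adjusted p = 0.72). Nor did Grm2 (0.76), Grm4 (0.08) or Grm8 (-0.37). Grm6, the receptor of retinal bipolar cells, had no reads.

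The GABA-A subunit genes changed in both directions and made up 9 of the 18 genes that passed. Gabra4, Gabrg3, Gabra5, Gabra2 and Gabrq rose, and Gabrg1 and Gabrb1 were among those that fell. For each of these named genes the groups were clear of each other. Gabrg1, a gamma subunit known from astrocytes and stem cells, was at 3617, 2519 and 1521 in THC and 1137, 783 and 852 in TKO (2552 ± 1048 and 924 ± 188). It fell by 1.40 on the log2 scale (adjusted p = 0.00012, SE 0.18). Gabrb1, a beta subunit, was at 3369, 2691 and 1874 in THC and 1130.2, 962 and 1211 in TKO, and its log2 change was -1.23 (adjusted p = 0.00022, SE 0.17). Both were highest in THC 1, and both fell within each batch (-1.67 and -1.57 in February, -1.26 and -1.06 in November).

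Gabrq, the theta subunit, had the largest change of the tested receptor genes. It was at 13.03, 4.72 and 8.08 in THC and 128, 68.8 and 124 in TKO, 8.61 ± 4.18 against 107 ± 33.0. The rise of Gabrq was 3.53 on the log2 scale, 11.5-fold (adjusted p = 5.7e-05, SE 0.41). It was large in the February pair (3.20) and in the November samples (3.69). In TKO it was still a minor subunit, at 1.65 to 2.85% of the GABA-A sum per kilobase.

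Gabra4, the alpha 4 subunit of receptors outside synapses, was at 957, 609 and 570 in THC and 1503, 1376 and 1230.4 in TKO. It rose by 0.98 (adjusted p = 0.00029, SE 0.14) and went from 10.3 to 12.4% of the GABA-A sum in THC to 24.98 to 28.99% in TKO, while Gabrg1 went from 24.4 to 36.2% to 12.8 to 16.2% (exact permutation p = 0.1 for each share). Gabrg3 was at 313, 284 and 327 in THC and 605, 517 and 646 in TKO, and it rose by 0.93 (adjusted p = 0.00088, SE 0.16), nearly equally in the batches (0.95 and 0.92). The family's sum per kilobase was 1012 ± 241 in THC and 827 ± 57.4 in TKO and overlapped, while these shares did not.

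Calls for the alpha 5 and alpha 2 subunits were weaker. Gabra5 was at 18.0, 52.9 and 23.2 in THC and 64.4, 68.8 and 75.3 in TKO (log2 change 1.27, adjusted p = 0.027, SE 0.38). With any library but THC 2 left out it no longer passed (adjusted p from 0.056 to 0.14), nor did it with no filter on low values. A transcript on the opposite strand shares 148 of its exonic bases, and the library chemistry does not keep the strand. Gabra2 was at 356, 348 and 333 in THC and 554, 391 and 521 in TKO (0.48, adjusted p = 0.044, SE 0.16). It no longer passed with any library but TKO 2 left out, and over all other settings its adjusted p was 0.029 to 0.18.

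Gabra3 (0.10), Gabrb2 (0.07) and Gabre (0.96) did not pass. Gabre, at 6.06 to 27.3, was just inside the filter on low values, and Gabrd, the delta subunit that pairs with alpha 4 outside synapses, was just outside it, at 0 to 26.4 in THC and 3.22 to 10.6 in TKO. The rho subunits Gabrr1 (-0.91) and Gabrr2 (-0.08) did not pass; Gabrr2, the higher of them per kilobase, was at 50.1, 45.3 and 72.7 in THC and 52.7, 49.4 and 54.1 in TKO. Gabra6, Gabrp, Gabrr3 and Grm6 had no reads in any library, which allows up to 3 reads in each (counting error only).

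Many GABA-A genes sit in clusters, and neighbours on chromosome 5 did not share a direction. On chromosome 5 the order is Gabrg1 (70751047 to 70842617), Gabra2 (70957597 to 71095849), Gabra4 (71569749 to 71658308) and Gabrb1 (71658113 to 72149037). The outer pair fell (log2 changes -1.40 and -1.23) and the inner pair rose (0.48 and 0.98). Gabra4 and Gabrb1 are read in opposite directions and their exons share 46 bases in GENCODE M21. On chromosome 7 the neighbours Gabrg3 and Gabra5 both rose. In the cluster on chromosome X Gabrq passed, and Gabre and Gabra3 did not.

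**Figure D4:**
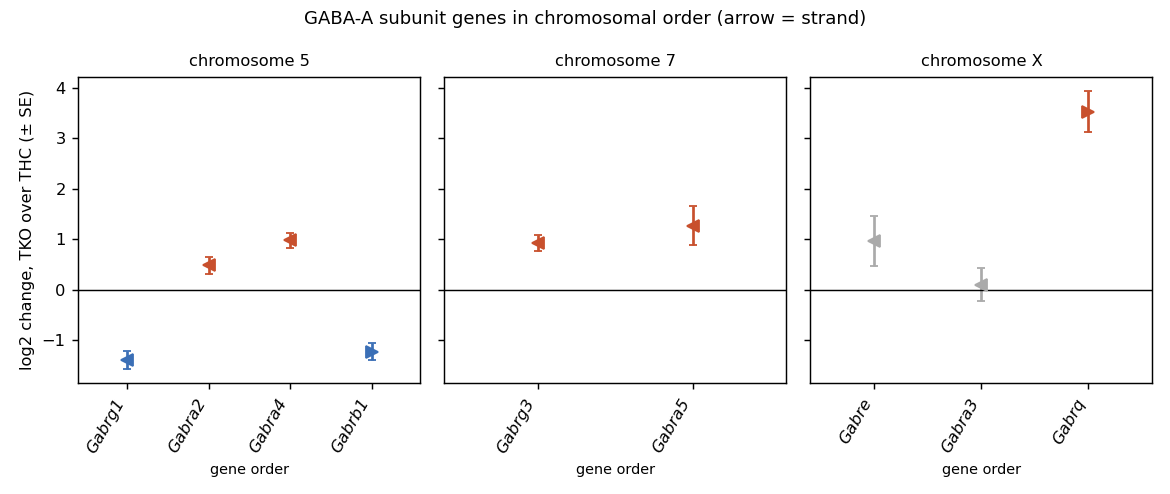
Log2 change (TKO over THC) with its standard error for GABA-A genes of clusters on chromosomes 5, 7 and X in chromosomal order, not to scale along the chromosome; arrows show the strand and colours the genes that passed. On chromosome 5 the outer genes are at -1.40 and -1.23 and the inner genes at 0.48 and 0.98.

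Upstream sequence is shown for the neighbours that moved apart, Gabra4 and Gabrb1, and for Gabrq, the gene with the largest change. RefSeq (GRCm38.p6) gives Gabrb1 a start 387 bases from that of Gabra4 and another 41624 bases away, and counts per gene do not tell which was used. The window of the near start is not printed because most of it is exonic in Gabra4, and the window of the distant start overlaps exons of the noncoding gene Gm38562. Sequences run 5′ to 3′ on the gene's strand and end at its start, except that the 55 bases of Gabra4 next to its start are left out because they are exonic in Gabrb1; capitals mark CG dinucleotides. Gabra4 is from chr5:71658364-71658558 (minus strand), Gabrb1 from chr5:71699682-71699931 (plus strand, the distant start) and Gabrq from chrX:72824928-72825177 (plus strand).
Gabra4: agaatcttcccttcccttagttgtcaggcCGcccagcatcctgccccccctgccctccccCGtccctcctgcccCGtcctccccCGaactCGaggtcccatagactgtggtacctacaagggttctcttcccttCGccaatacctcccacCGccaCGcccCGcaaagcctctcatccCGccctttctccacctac
Gabrb1: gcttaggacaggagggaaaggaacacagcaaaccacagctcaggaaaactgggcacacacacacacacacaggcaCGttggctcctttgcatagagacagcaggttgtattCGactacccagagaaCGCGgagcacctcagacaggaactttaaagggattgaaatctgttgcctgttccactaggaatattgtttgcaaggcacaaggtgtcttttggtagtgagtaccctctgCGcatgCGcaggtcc
Gabrq: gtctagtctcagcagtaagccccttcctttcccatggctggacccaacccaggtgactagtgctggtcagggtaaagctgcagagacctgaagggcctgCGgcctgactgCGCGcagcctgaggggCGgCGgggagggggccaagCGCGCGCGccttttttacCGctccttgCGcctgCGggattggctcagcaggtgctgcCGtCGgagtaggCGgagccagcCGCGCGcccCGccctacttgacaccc
The full 250 upstream bases hold 12 CG dinucleotides in Gabra4, 6 at this distant start of Gabrb1, 18 at its near start and 19 in Gabrq, where the median of all RefSeq windows is 6. Because pocket proteins act through E2F factors, the E2F-type words TTTCCCGC, TTTGGCGC, TTTCGCGC and TTTGCCGC were searched on both strands. None of the 42 windows of the 34 matched genes with an entry (Grid2ip and Grin1os among them) held one, nor did these 3, and 1.86% of all 32851 windows did. This says only that these letters are not in these windows.

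GABA-B receptors are obligate pairs of the subunits encoded by Gabbr1 and Gabbr2, and both genes fell. Gabbr1 (chromosome 17, 37045966 to 37075067) was at 3163, 2554 and 2022 in THC and 1182, 936 and 1064 in TKO, and it fell by 1.26 (adjusted p = 3.2e-05, SE 0.13). Gabbr2 (chromosome 4, 46662305 to 46991873) was at 808, 433 and 296 in THC and 131, 114 and 109 in TKO. It fell by 1.99, 3.97-fold (adjusted p = 6.6e-05, SE 0.23); the February pair differed by -2.62 and the November samples by -1.67. Every TKO library was below every THC library for both. Per kilobase Gabbr1 exceeded Gabbr2 in all libraries, at 332 ± 73.6 against 76.6 ± 39.6 in THC and 137 ± 15.8 against 17.6 ± 1.70 in TKO, and the share of Gabbr2 in the pair went from 14.5 to 22.9% to 10.6 to 12.4%.

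The authors' deposited table calls 17 of the receptor genes at an adjusted p under 0.05, all of them also called here with the same sign. Grin1 is the 1 gene called here that the authors' deposited table does not call (adjusted p = 0.067).

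Other genes of both transmitter systems were followed in 7 lists with 81 genes, of which 76 were tested, 6 were higher and 18 were lower. Among all genes tested the shares were 14.3% and 13.6%. The lists were chosen with earlier results of these data known, so these counts only describe them. Among 8 genes of synthesis and breakdown, 4 fell and none rose, with the smallest adjusted p for Abat, the enzyme that breaks down GABA (log2 change -1.45, adjusted p = 1.6e-05, SE 0.14), and the GABA-synthesising Gad1 (-0.94, adjusted p = 0.0002, SE 0.13) and Gad2 (-0.67, adjusted p = 0.0014, SE 0.12). Glud1 (-0.34) did not pass.

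Of 12 transporter genes, 9 were tested, 5 fell and none rose. The GABA transporter gene Slc6a11, which encodes GAT-3, went from 4583 ± 2540 to 956 ± 47.2, a log2 change of -2.11 (adjusted p = 3.2e-05, SE 0.23). The glutamate transporter gene Slc1a1 fell by 1.08, while the main glial ones, Slc1a3 (0.00) and Slc1a2 (-0.54, adjusted p = 0.063), did not pass. Of the chloride transporter genes, Slc12a2, which loads cells with chloride, fell by 0.60 (adjusted p = 0.023, SE 0.17). The fall of Slc12a2 was larger in the February pair (-1.17) than in November (-0.31). It was at 2668, 1257 and 1315 in THC and 1186, 925 and 1163 in TKO, so THC 1 stood apart. Slc12a5, which extrudes chloride, did not pass (0.00).

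AMPA auxiliary genes changed in both directions, with 4 of 15 higher and 2 lower. Shisa9, which slows recovery of AMPA receptors from desensitization, went from 537 ± 316 to 70.1 ± 14.8 (log2 change -2.77, adjusted p = 4.8e-05, SE 0.31), and the TARP gene Cacng5 fell by 1.29 (adjusted p = 3.9e-05, SE 0.14). Shisa6 (1.51, adjusted p = 0.0088, SE 0.36), Cpt1c (0.50) and the TARP gene Cacng4 (0.43) rose. Olfm1 (0.05) and Frrs1l (0.09) did not pass. Of 9 tested genes listed as partners of kainate, delta and NMDA receptors, Neto2, an auxiliary subunit of kainate receptors, rose by 0.94 (adjusted p = 0.0011, SE 0.16). Grina fell by 0.88, and Srr (-0.06) and Ephb2 (0.16) did not pass.

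Of 19 tested excitatory scaffolds, Dlgap4 (-1.39) and Grip1 (-1.08), a binding partner of AMPA receptors, fell and none rose. The most abundant ones that did not pass were Dlgap1 (-0.42) and Nlgn3 (-0.04). Of 14 genes for anchoring and assisting GABA receptors, Gabarapl1 (-0.86), Slitrk3 (-1.09) and Kctd8 (-1.23) fell and 1 rose. That gene, Kctd12, encodes an auxiliary subunit of GABA-B receptors and went from 138 ± 62.8 to 491 ± 143 (log2 change 1.88, adjusted p = 2.3e-05, SE 0.19). Kctd12 thus moved against Gabbr1 and Gabbr2, while Kctd8, of the same family of auxiliary subunits, fell as they did. Kctd8 was low, at 24.1 to 38.7 in THC and 12.6 to 14.6 in TKO, and passed narrowly (limma adjusted p = 0.045, SE 0.42). Another listed gene of this family did not pass (0.29, adjusted p = 0.77). Clptm1 (-0.27) and Gabarap (0.02) did not pass.

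Marker lists of the cell types that the sorted samples could hold moved as well. Of 14 astrocyte and quiescent stem cell markers, 7 fell and 1 (Gfap) rose, with a median log2 change of -0.58. Their summed count was 301324, 247261 and 171993 in THC and 194463, 146974 and 164055 in TKO. Within each genotype it was highest in the February library. So were Grm3, Gabrg1, Grin2c and Gabbr2, which fell, Gabra4, Gria3 and Gabrq, which rose, and Grin3a, which did not pass. Gabrb1, which fell, was highest in TKO 3 among the TKO libraries. Mature neuron markers summed to 6328 to 8345 in THC and 2858 to 3151 in TKO (4 of 12 fell, none rose), and neuroblast markers to 46203 to 63280 and 30476 to 39966 (8 of 14 fell, none rose). No marker of these 3 lists was at 0 in any library; the lowest, Drd1, was at 4.88 to 25.5. The mature neuron and neuroblast sums were lower in every TKO library. The astrocyte and stem cell sum overlapped between the genotypes, with THC 3 below TKO 1. The part of these cell types in the receptor changes was not tested.

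For oligodendrocyte progenitors, which also express AMPA and NMDA receptors, 1 of 10 markers rose and 1 fell. Their sum was 17892 in THC 1, 6895 to 7734 in THC 2 and THC 3, and 9870.1 to 12613 in TKO. THC 1 also held the highest THC values of Gria2, Gria3 and Grin3a, and of Grm3, Gabrg1, Gabbr1 and Gabra4 among others. Among the THC libraries the astrocyte and stem cell sum and the microglia sum were highest there too. The part of progenitors in the receptor values was not tested. Mature oligodendrocyte markers summed to 91913 to 101540 in THC and 17433 to 28313 in TKO (all 10 fell). Endothelial (8 of 9) and pericyte markers (6 of 6) fell too, and 5 of 10 microglia markers rose. Of 8 ependymal markers 3 fell and 1 rose. Their median log2 difference changed sign between the batches, with 0.81 in February and -0.79 in November.

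**Figure D5:**
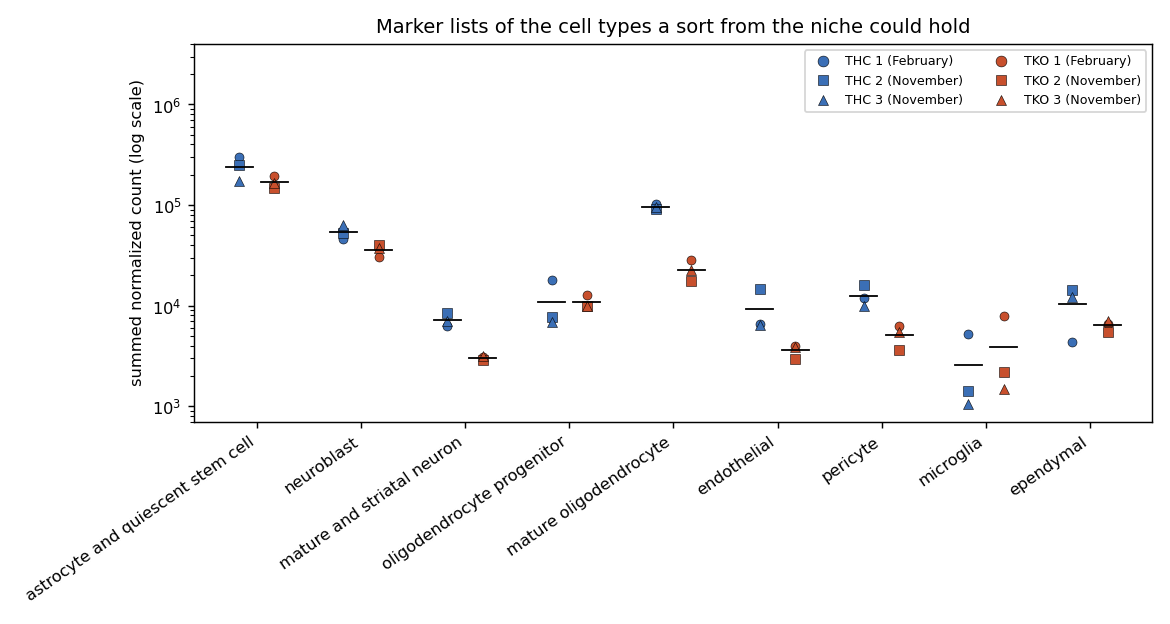
Summed normalized counts (log axis) of the 9 marker lists, 1 symbol per library, bars at the group means. Mature oligodendrocyte and mature neuron sums are lower in every TKO library, and oligodendrocyte progenitor and microglia sums are highest in the February libraries.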

How the data were processed

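RNA-seq values of 6 samples (3 THC, 3 TKO) were used, grouped by the titles, with batch from the batch label. Per the labels' protocols, RNA (at least 35 ng, RNA quality number at least 8.0) was amplified with SMART-Seq v4 and made into libraries with Nextera XT. The submitters' processing notes name HISAT2, featureCounts, Subread, DESeq2 and GRCm38; the sources used here do not give versions, annotation or read filters. The authors' deposited table holds normalized counts, a signal equal to reads divided by 1 factor per sample. It also holds, per the file headers, the mean signal, a log2 fold change with its standard error and Wald score, p-values, adjusted p-values and a weight score, all made by the authors.

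Every value was a whole multiple of a step per library (100% within 0.001 of a read), and reads were recovered from it; for THC 1 and THC 3 the step lies so near 1 that this could not be checked independently of rounding. The factors equal median-of-ratios size factors to within 5.22e-12. Libraries of a genotype differed by more than sampling noise (chi-square over degrees of freedom 15.5 to 44.5), so none was a duplicate.

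Genes with a value of at least 10 in at least 3 samples were tested with limma 3.58.1 (R 4.3.3, intensity trend) on log2(value + 1), with batch and genotype as terms and Benjamini-Hochberg adjustment over 17278 genes; a gene passed at an adjusted p under 0.05. The design assumed counts or normalized values, and the table held the latter. On this log2(value + 1) scale the change of a low gene is understated. There were 3 residual and 8.9 prior degrees of freedom. February and November differences are of the same log2 values, and February has 1 sample per genotype, so no test. Nothing says whether pools share mice, so p-values measure the spread between these samples. Levels between genes are compared per kilobase of the union of exons in GENCODE M21 (GRCm38), which matched all 49 rows; which transcripts were counted is not known.

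The receptor genes, the 7 companion lists (81 genes) and the 9 marker lists (93 genes) were chosen with earlier results of these data known. Named with values in every sample were the receptor genes that passed, the highest per kilobase of each family and the 3 most abundant that did not pass; of each companion list, at most 3 genes per direction that passed and 2 that did not. Other settings were other pseudocounts (0.5 and 5), filters, batch terms and scaling, edgeR 4.0.16 and DESeq2 1.42.0 on the recovered reads, and each library left out. All sample columns were matched to samples. Some genes of these lists are counted but not reported here by name or value.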

Additional observations from a re-analysis of the deposited data

How the results depend on the processing

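All 18 receptor genes that passed kept their direction in the other settings that tested them (15, or 14 for Grin1, which the filter at 50 removes), and 14 of the 18 genes passed in every one; Gabra2, Gabra5 and Grin1 were among those that did not. The numbers of receptor genes higher and lower were 6 and 12 with edgeR on the recovered reads (2365 and 2413 of all genes) and 6 and 11 with DESeq2 (2513 and 2343), 5 and 10 with no batch term, 4 and 11 with no filter on low values, and 4 to 5 and 10 to 11 with 1 library left out. Some values near 0 changed sign with 1 library left out and passed in none of these settings: Gria2 ranged from -0.28 to 0.19 (positive without THC 1 or TKO 1), Gabrr2 from -0.25 to 0.14 (positive without THC 3) and Grid1 from -0.20 to 0.58 (negative without THC 3 or TKO 3). With the replicate number as a block in place of batch, 5 receptor genes were higher and 11 lower, and the calls of Gabra2 (adjusted p = 0.072) and Grin1 (0.067) ended; same-numbered libraries did not all deviate together (correlations 0.23, -0.11 and 0.14), so the numbers were not taken as pairs. Without THC 1 or TKO 1 only the November libraries set the difference. Genes with few reads, such as Grin1, Gabra5 and the low Grm genes, have wide standard errors, and differences there may not be detectable at this depth.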
